A study of Homo sapiens with 10 samples.

Results

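MDA-468 cells, a human breast cancer line of basal type with high EGFR, were compared 48 h after transient transfection with small interfering RNA directed at Che-1 (siChe-1) or with control RNA (siControl). The comparison used 6 of the study's 10 arrays, 3 siChe-1 and 3 siControl, taken by the cell line and the transfection in their labels. It covered 18417 genes, each read through a probe set that carries 1 gene symbol. The other 4 arrays hold the same transfections in SKBR3, an ERBB2-rich breast cancer line, and are used only where the lines are set against each other. Both lines carry mutant p53 according to the labels. The labels name 1 reagent against Che-1, so a response to loss of the protein and a response to this double-stranded RNA cannot be told apart. The labels do not say whether the arrays of a group stem from separate cultures, so p-values cover the spread among these arrays alone, and that spread may be technical.

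Che-1 is the protein of the AATF gene, a nuclear and nucleolar factor that binds RNA polymerase II, takes part in the DNA damage response and belongs to a complex needed to assemble the small ribosomal subunit. Cells read double-stranded RNA in the cytoplasm through RIG-I and MDA5, which signal through MAVS to interferon regulatory factors and NF-kappaB. These factors switch on interferon genes, and secreted interferon then acts through JAK and STAT proteins on many target genes whose promoters hold an interferon-stimulated response element. Basal-like breast cancer cells carry keratins of the basal layer, depend on EGFR signalling and differ in this from luminal cells, which carry hormone receptors and secretory genes.

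The arrays matched the labelled line. EGFR read between 12.2 and 12.27 on the MDA-468 siControl arrays and KRT5, a basal keratin, between 12.34 and 12.53 (log2 values). ERBB2 lay between 8.2 and 8.4, against 12.27 to 12.4 on the SKBR3 siControl arrays. SMAD4 and RB1 lay between 3.66 and 4.14 on MDA-468 siControl arrays and between 8.53 and 9.04 on SKBR3 siControl arrays, although value distributions differ between the lines (array medians 6.87 to 6.94 and 6.36 to 6.46). Replicate arrays of MDA-468 correlated with r between 0.9943 and 0.997 over the genes tested, and arrays of different groups with r between 0.9646 and 0.9695. No arrays held identical values.

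AATF fell. Its log2 values were 8.86, 8.87 and 8.9 on siControl arrays 1 to 3 and 7.08, 7.13 and 7.29 on siChe-1 arrays 1 to 3. The groups did not overlap, and the gap was many times the spread within either group. The change of -1.71 ± 0.08 (log2 change ± SE, siChe-1 minus siControl, limma adjusted p = 5.48e-07) corresponds to a 3.27-fold lower signal. ACACA, the next measured gene on chromosome 17 in RefSeq order and the source of acetyl-CoA carboxylase, fell by 0.6. Because RNA was taken from whole cultures, fewer cells of a kind and less RNA per cell cannot be told apart for AATF or for any gene below.

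The response reached far beyond AATF. Of the 18417 genes, 6914 (37.5%) passed the test at an adjusted p under 0.05 (limma, Benjamini-Hochberg over all genes). Of these, 2819 were higher with siChe-1 (15.3% of genes tested) and 4095 were lower (22.2%). The directions differed in shape. Falls were more frequent and shallow, with 26 past 4-fold, whereas 146 genes rose more than 4-fold and 35 more than 16-fold. Most calls were small: 1793 of the rises and 2770 of the falls were under 1.5-fold, and the median change was 0.46 among called rises and -0.46 among called falls. For 8930 genes (48.5%) the arrays of the groups did not overlap, and 6872 of these were called. AATF itself was outdone by 43 genes that fell further.

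Calls depended on how bright a gene was. Genes were put into 5 classes of equal size by mean level. In the dimmest class 6.0% rose and 3.64% fell. In the brightest 21.1% rose and 40.1% fell, and the median change there was -0.12, against 0.02 over all genes. The gene lists below are described by their counts of called members and their median change, to be read beside 15.3% higher, 22.2% lower and a median of 0.02 over all genes. In the 13 lists of sensing, interferon, antigen presentation, checkpoint ligand and NK cell ligand genes, 124 of 177 genes rose and 8 fell. They held 55 of the 146 genes that rose more than 4-fold, and the other 91 lay elsewhere.

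**Figure D1:**
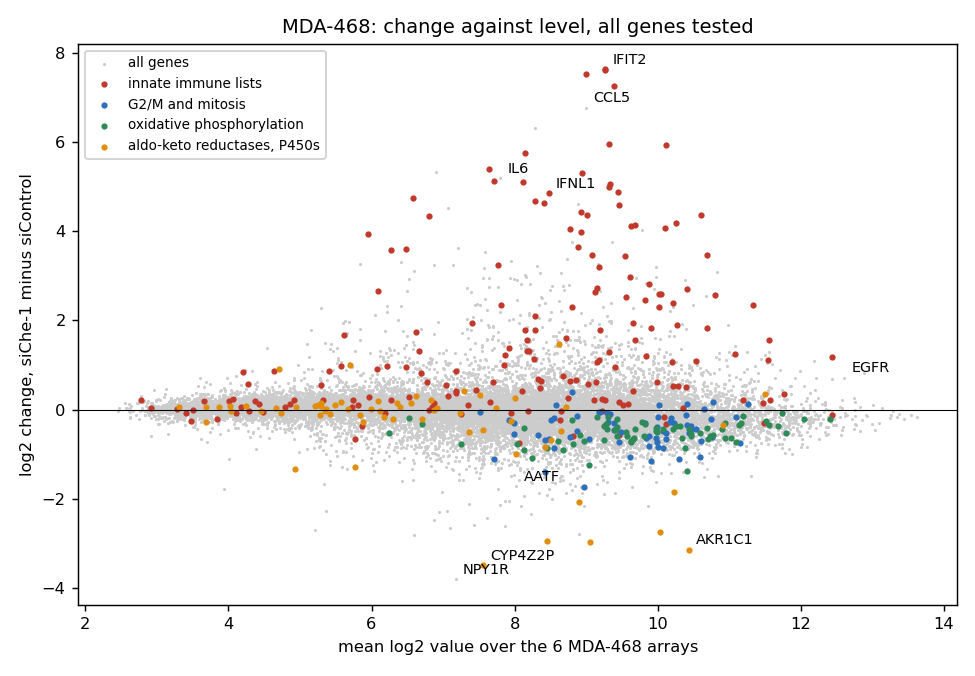
Change of each gene tested (log2, siChe-1 minus siControl, vertical axis) against its mean log2 value over the 6 MDA-468 arrays (horizontal axis); each point is a gene, and colours mark members of the named lists. Innate immune genes reach 7.62 at the top, aldo-keto reductases and P450 genes make up much of the bottom edge, and oxidative phosphorylation genes lie just below 0 at high levels.

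Interferon genes themselves rose. IFNB1, the type I interferon of epithelial cells, read 3.93, 3.87 and 4.15 with siControl and 7.88, 7.94 and 7.91 with siChe-1, a change of 3.93 ± 0.09 (limma adjusted p = 1.05e-08). The siControl values lie near the bottom of the array's range. IFNL1, a type III interferon, went from 5.99, 5.94 and 6.22 to 10.89, 10.86 and 10.97, a rise of 4.85 ± 0.09 (adjusted p = 3.45e-09). Its chromosome 19 neighbours IFNL2 and IFNL3 rose by 4.37 and 3.45, but their near-identical sequences mean that the probe sets may share signal. Only these 4 of the 16 type I and III interferon genes measured passed the test, and the other 12 did not. With siControl 14 of the 16 had a mean below 6.18, the 30th percentile of levels, where a response can be missed.

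The sensors that detect foreign RNA and DNA rose with them. In that list 18 of 22 genes were higher and 2 lower, with a median change of 1.10. RIGI, the cytoplasmic sensor of RNA with a 5′ triphosphate, read 7.66, 7.51 and 7.67 with siControl and 11.7, 11.7 and 11.86 with siChe-1, and every siChe-1 array was far above every siControl array (change 4.14 ± 0.08, limma adjusted p = 4.4e-09). IFIH1, which encodes MDA5 and binds long double-stranded RNA, rose by 4.07, and DHX58, its relative without a signalling domain, by 2.34. IFI16, a DNA sensor, rose by 3.58, ZNFX1, a helicase that senses RNA, by 2.52, and TLR3, the endosomal receptor for double-stranded RNA, by 1.55. TLR7, an endosomal receptor for single-stranded RNA, fell by 0.65. The adaptor MAVS was lower by -0.24 (limma adjusted p = 0.017), a call lost without siControl replicate 3 (adjusted p = 0.0686) or siChe-1 replicate 2 (adjusted p = 0.0719).

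Parts of the signalling chain downstream of interferon moved in different directions. JAK2, a cytokine receptor kinase, rose by 2.30 and TYK2, the kinase bound to the type I receptor, by 0.54. IFNAR2, the signalling subunit of the type I interferon receptor, fell by 0.58, and IL10RB, a subunit of the type III receptor, by 0.32. In the list of receptors, JAKs and STATs, 7 of 15 rose and 2 fell. IRF9, the DNA-binding subunit of the complex that carries interferon signals to promoters, read 7.81, 7.8 and 7.8 with siControl and 10.49, 10.37 and 10.43 with siChe-1. It rose by 2.63, IRF1 by 2.98 and IRF7 by 1.31, and 4 of 8 interferon regulatory factors passed the test, all upward. Feedback inhibitors rose as well (7 of 12), among them USP18, which blocks the type I receptor, by 2.58, SOCS2 by 0.98 and SOCS3 by 0.86.

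The deepest rises in the cells were those of interferon-stimulated effectors. IFIT1, which binds RNA lacking a cellular cap, read 5.63, 5.35 and 5.4 with siControl and 12.98, 13.11 and 13.14 with siChe-1. IFIT2 behaved alike, with 5.7, 5.09 and 5.59 against 13.03, 13.05 and 13.15. Both changes (7.61 ± 0.09 and 7.62 ± 0.14, limma adjusted p = 3.32e-10 and 3.91e-09) amount to a signal 196-fold higher. RSAD2, encoding viperin, an enzyme that makes a chain-terminating nucleotide, read 5.37, 5.95 and 5.93 with siControl against 12.94, 12.98 and 13.13. For all 3 genes the siChe-1 values are close to the top of the array's range, where RMA values understate change.

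Across the family of IFIT and IFITM proteins 8 of 9 genes rose and 1, IFITM10, fell by 0.75 (median of the 9, 3.46). IFITM1, which hinders viral entry at the cell surface, rose by 3.46 and IFITM3, which acts in endosomes, by 1.24. The 4 measured genes of the OAS and RNase L list rose by 3.97 to 5.96, led by OASL (5.96) and OAS2 (5.75); OAS proteins make the 2′-5′ oligoadenylates that switch on RNase L. All 7 genes of ISG15 conjugation rose. These include the modifier ISG15 (3.19), its activating enzyme UBA7 (1.78), its conjugating enzyme UBE2L6 (1.29) and its ligase HERC5 (5.05).

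Of 36 antiviral GTPases and restriction factors, 29 rose and 1 fell, with a median of 2.34. IFI44L read 4.96, 5.38 and 5.4 with siControl and 12.58, 12.78 and 12.9 with siChe-1, a rise of 7.51. IFI6, a small protein of endoplasmic reticulum and mitochondria, rose by 5.93 with an SD of 0.055 among siControl and 0.029 among siChe-1 arrays. SAMD9L rose by 5.40, MX2 by 5.13 and its relative MX1, an antiviral GTPase, by 4.35. TRIM22, a ubiquitin ligase, rose by 4.63. The exception was APOBEC3B, a cytidine deaminase of the nucleus, which fell by 0.57. The mono-ADP-ribosylating enzymes PARP14 (2.56), PARP12 (2.45) and PARP9 (2.38) rose together with DTX3L (1.89), the ubiquitin ligase that pairs with PARP9, and with ZC3HAV1 (2.35), which binds viral RNA.

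Risers lay next to each other in the genome. In RefSeq gene order IFIT2 (7.62), IFIT3 (5.30), IFIT1B (0.86), IFIT1 (7.61) and IFIT5 (3.65) follow one another on chromosome 10, between LIPA, a lysosomal lipase that rose by 0.50, and a gene that did not pass the test. CXCL10 (6.30) and CXCL11 (5.32) are adjacent on chromosome 4 and CXCL9 (1.38) is near them. On chromosome 1 a run of guanylate-binding proteins, GTPases that attack the membranes around intracellular microbes, rose throughout: GBP3 by 1.82, GBP2 by 0.58, GBP7 by 0.86, GBP4 by 4.33, GBP5 by 3.59 and GBP6 by 0.58. The sizes thus spread widely among neighbours of 1 family.

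The promoters of these genes hold recognisable elements, shown here because the genes rose together. RefSeq promoters (GRCh38.p14) were searched over the 250 bases upstream of each start, on both strands. The motifs sought were an interferon-stimulated response element (ISRE, written GAAA, any 2 bases, GAAA), an NF-kappaB element (GGG, any 3 bases, TTCC) and others named further on. None of these motifs holds another whole, although neighbouring matches can share end letters. Capitals mark the matches, which read as their reverse complement where they lie on the other strand. IFIT1 holds a pair of ISREs in chr10:89392492-89392544 (+), RSAD2 holds 1 in chr2:6877617-6877656 (+), and CXCL10 holds an ISRE and an NF-kappaB element in chr4:76023650-76023733 (-). IFNB1, in chr9:21077984-21078023 (-), and IL6, in chr7:22727112-22727151 (+), hold an NF-kappaB element.
IFIT1: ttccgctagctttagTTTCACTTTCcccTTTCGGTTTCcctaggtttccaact
RSAD2: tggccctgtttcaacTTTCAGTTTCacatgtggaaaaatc
CXCL10: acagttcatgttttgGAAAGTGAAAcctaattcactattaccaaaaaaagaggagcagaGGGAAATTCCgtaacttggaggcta
IFNB1: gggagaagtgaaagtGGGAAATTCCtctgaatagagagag
IL6: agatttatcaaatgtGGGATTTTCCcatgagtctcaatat

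The ISRE letters were found in 2.63% of the 20109 promoters of genes tested and in 43 of 169 promoters (25.4%) of the genes that rose more than 4-fold. They were present in 6 of 7 promoters of the IFIT and IFITM list and in 15 of 34 of the antiviral list. They were also in 1 of 2 OAS and RNase L promoters, 3 of 18 sensor promoters and 2 of 25 chemokine promoters. Promoters were on record for 117 of the 146 genes past 4-fold, 6 of 9 IFIT and IFITM genes and 25 of 36 antiviral genes. A gene with several promoters counts more than once. Of 33 promoters of the genes that fell more than 4-fold none held the ISRE letters, and 33 are too few to show a share under 2.63%. The NF-kappaB letters were found in 6.19% of all these promoters, in 8 of 25 chemokine promoters and in 10 of 32 promoters of NF-kappaB subunits and inhibitors. A match describes the letters only, and factor binding was not measured.

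Genes that display peptides to T cells rose. In the class I list 13 of 15 passed the test upward and none downward, with a median of 0.69. TAP1, a subunit of the transporter that carries peptides into the endoplasmic reticulum, read 9.03, 9.09 and 9.03 with siControl and 11.78, 11.73 and 11.79 with siChe-1, without overlap (change 2.71 ± 0.06, limma adjusted p = 1.72e-08). Its partner TAP2 rose by 1.55, the immunoproteasome subunit PSMB9 by 2.31, the trimming peptidase ERAP2 by 3.24, the class I activator NLRC5 by 1.78 and the light chain B2M by 1.17. In the class II list 6 of 10 rose, including CTSS (1.79), the protease that trims the invariant chain, HLA-DPA1 (1.31) and the class II activator CIITA (0.62). HLA genes resemble one another, so their separate values are uncertain.

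Ligands that hold back or engage lymphocytes also changed. CD274, which encodes PD-L1, read 4.63, 4.89 and 4.76 with siControl and 7.19, 7.28 and 7.77 with siChe-1, a rise of 2.65 in which siChe-1 replicate 3 was highest. PDCD1LG2, encoding PD-L2, rose by 1.67. IDO1, which breaks down tryptophan, rose from 4.23, 3.95 and 4.47 to 8.78, 9.01 and 9.07, or 26.8-fold. RAET1L (3.47) and ULBP3 (1.37), ligands of the natural killer receptor NKG2D, rose while their relative ULBP2 fell by 0.36. VTCN1, which encodes the inhibitory ligand B7-H4, was bright on every array and fell by 0.31. Of the 20 genes in this list 15 rose and 2 fell.

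**Figure D2:**
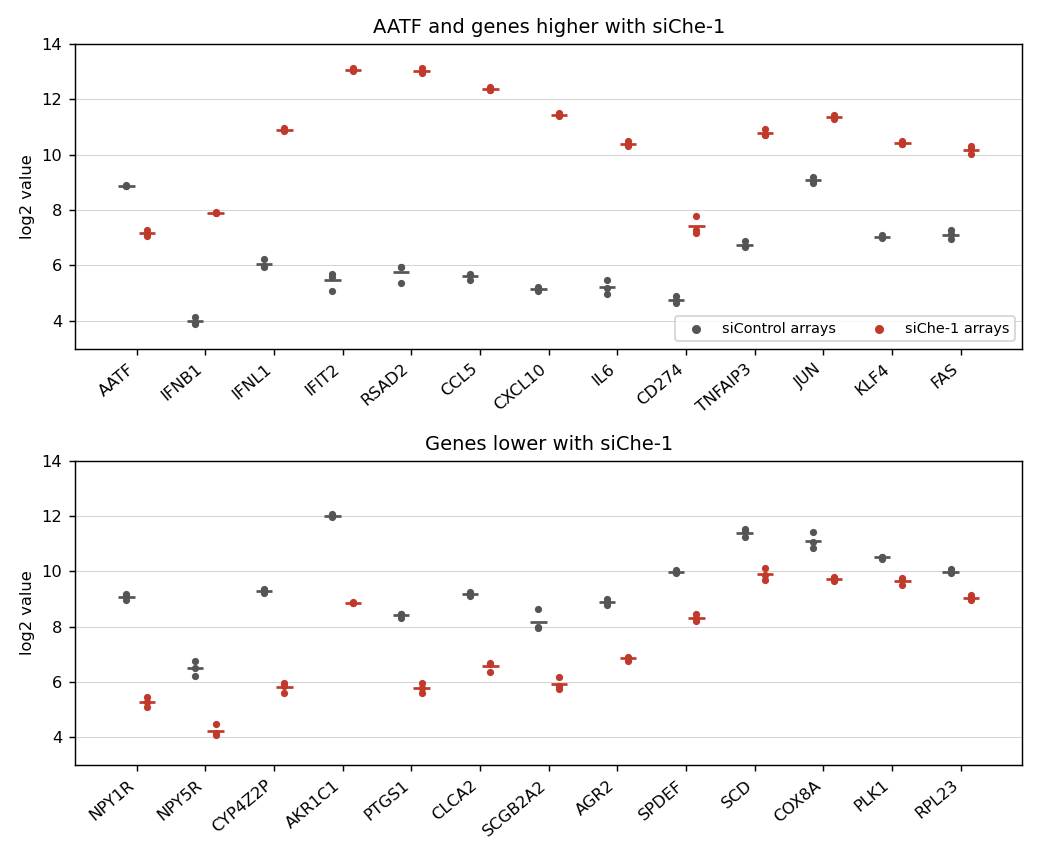
Log2 value on each MDA-468 array (points; dark, siControl; red, siChe-1) with the group mean (bar) for AATF and 12 genes that rose (upper panel) and for 13 genes that fell (lower panel). In no gene shown do the 3 siChe-1 arrays overlap the 3 siControl arrays.

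Inflammatory cytokines made up a further block of large rises. CCL5, a chemokine for T cells, read 5.65, 5.7 and 5.49 with siControl and 12.35, 12.32 and 12.46 with siChe-1, a 109-fold higher signal (change 6.76 ± 0.08, limma adjusted p = 3.32e-10). CXCL10 read 5.11, 5.07 and 5.24 against 11.41, 11.49 and 11.42. IL6, the acute-phase cytokine, read 4.97, 5.48 and 5.17 against 10.33, 10.49 and 10.37, a rise of 5.19. All 3 were low with siControl and bright with siChe-1. Of 30 chemokines 12 rose and none fell. The others include CX3CL1 (2.31), a membrane-bound chemokine, and the neutrophil attractant CXCL8 (1.40). Among 31 interleukins and haematopoietic cytokines 12 rose. LIF, a relative of IL6, rose by 2.95, IL15, a growth factor of natural killer cells, by 1.14 and IL18, which inflammatory caspases cut, by 1.01. IL7R, a lymphoid cytokine receptor picked after its value was seen, rose by 3.62.

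NF-kappaB inhibitors and subunits rose. TNFAIP3, which encodes A20 and removes ubiquitin chains from signalling proteins, read 6.88, 6.67 and 6.7 with siControl and 10.7, 10.72 and 10.94 with siChe-1, a 16.4-fold rise. Its binding partner TNIP1 rose by 1.76, the deubiquitinase CYLD by 1.65 and NFKBIA, the inhibitor that keeps NF-kappaB in the cytoplasm, by 0.79. Subunits rose too, NFKB2 by 1.43 and RELB by 1.35. In this list 13 of 19 genes rose and none fell, with a median of 0.34.

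Some TNF family ligands and receptors rose, death receptors among them. In the TNF receptor family 6 of 19 genes rose, none fell and 13 did not pass the test, with a median of 0.19. FAS, the death receptor, read 7.27, 6.96 and 7.12 with siControl against 10.02, 10.19 and 10.32 with siChe-1, an 8.34-fold rise (limma adjusted p = 1.22e-07). TNFSF10, which encodes the ligand TRAIL, was already bright and rose by 1.30, and its receptors TNFRSF10B and TNFRSF10A rose by 1.25 and 0.79. TNFSF15 (2.48), TNFSF18 (2.27), TNF (0.92) and TNFSF13B (0.71) made up the other 4 of the 5 risers among 13 TNF family ligands. The other 8 ligands did not pass the test.

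Adhesion receptors of inflammation split. CEACAM1 rose by 2.69, VCAM1 by 2.33 and ICAM1, which binds leukocyte integrins, by 1.28, whereas ICAM3 fell by 1.18 and ALCAM by 0.97. In the complement list 7 of 15 rose, with CFB, the protease subunit of the alternative pathway, at 2.91, the C1 inhibitor SERPING1 at 2.08 and C3 at 1.77. The apolipoprotein L genes APOL1 (2.65), APOL3 (1.78), APOL6 (1.61) and APOL2 (1.59) all rose, 4 of 6 measured.

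Transcription factors of the immediate early response were higher at 48 h. ATF3, a stress-induced repressor, read 5.79, 5.97 and 6.18 with siControl and 9.1, 9.07 and 9.31 with siChe-1, a rise of 3.18 ± 0.11 (limma adjusted p = 1.39e-07). JUN read 9.18, 9.04 and 8.99 against 11.29, 11.35 and 11.42, a rise of 2.29. JUNB rose by 1.41, FOS by 1.09 and FOSL2 by 0.83. In all, 12 of 14 AP-1 factors rose and none fell (median 0.79). None of the 16 promoters of these genes held the AP-1 letters TGANTCA, which 5.31% of promoters of genes tested hold. At that share 16 promoters are too few to show that the letters are rarer here. Of 26 other immediate early genes 21 rose, among them EGR1 (1.34), ZFP36 (1.5), an RNA-binding protein that shortens cytokine messages, and MYC (0.94).

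The Krueppel-like factors KLF4, KLF10 and KLF6 led their family. KLF4, which drives differentiation in surface epithelium, read 6.98, 7.04 and 7.1 with siControl and 10.39, 10.49 and 10.38 with siChe-1, a 10.4-fold rise. KLF10, a target of TGF-beta, rose by 2.10 and KLF6 by 1.95, while 10 of the 17 family members did not pass the test and the median was 0.07. Genes that restrain MAP kinase signalling rose in 14 of 19 cases (median 0.50), led by the receptor inhibitor SPRY2 (1.90) and the phosphatase DUSP1 (1.86). ERRFI1, which binds and inhibits EGFR, rose by 1.21.

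EGFR itself, the receptor that marks this line, rose from 12.26, 12.27 and 12.2 to 12.91, 12.93 and 13.07 (change 0.72 ± 0.07, limma adjusted p = 7.07e-05). The groups did not overlap, at values where the array leaves little room above. Its ligands BTC (0.95), EPGN (0.76), HBEGF (0.64) and EGF (0.45) rose too, and NRG2, a ligand of the related receptors, by 0.48. EPGN was low in the array's range, with means of 3.73 with siControl and 4.49 with siChe-1. Of 14 ERBB receptors and ligands 7 rose and 6 did not pass the test, and ERBB2 fell by 0.29 (limma adjusted p = 0.0234). The ERBB2 call was lost with the replicate block and without siControl replicate 1 or 3 or siChe-1 replicate 2 or 3. FGF2, a growth factor without a signal peptide that was picked after its value was seen, read 7.67, 7.54 and 7.39 against 10.74, 10.71 and 10.94.

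Targets of YAP and TEAD, which respond to cell shape, rose in most cases. Of 30 YAP and TEAD targets 20 rose and 2 fell, with a median of 0.57. ANKRD1 read 7.13, 7.06 and 7.19 with siControl against 9.85, 9.87 and 10.01 with siChe-1, a 6.87-fold rise. NT5E, the ectoenzyme that makes adenosine and is also called CD73, rose by 2.71, the clotting initiator F3 by 2.22, CCN2 by 1.80 and CCN1 by 0.80. TEAD2, a DNA-binding partner of YAP, fell by 0.99. Of 25 integrin subunits, which bind the matrix, 7 rose, 1 fell and 17 did not pass the test, with a median of 0.14. ITGA5, the fibronectin receptor subunit, read 6.56, 6.71 and 6.64 against 9.63, 9.59 and 9.72, an 8.08-fold rise, and its ligand FN1 rose 5.08-fold. ITGA2, a collagen receptor subunit, rose by 1.64, ITGA3, a laminin receptor subunit, by 1.40 and ITGB8 by 1.23, whereas ITGB5 fell by 0.63.

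Most matrix genes were not called. Of 53 collagen and laminin genes 39 did not pass the test. The laminin chain LAMB3 rose by 1.58, LAMC1 by 0.89, COL12A1 by 1.25 and COL4A5 by 0.91, while COL14A1 fell by 0.62. Of 31 genes of the plasminogen system, TIMPs and metalloproteases 8 rose, 2 fell and 21 did not pass the test. The urokinase receptor PLAUR rose by 1.88, the collagenase MMP13 by 1.94 and the plasminogen activator PLAT by 1.06, and the metalloprotease inhibitor TIMP1 fell by 0.99. TGF-beta ligands, receptors and SMADs were split, with 11 of 26 higher, 8 lower and a median of 0.12. INHBA, which encodes the activin A subunit, rose by 2.0. The receptors TGFBR3 and TGFBR2 rose by 1.45 and 1.05 and SMAD3 by 0.91, and BMP7 fell by 1.08. SMAD4, the shared partner of these SMAD proteins, stayed between 3.75 and 4.14 on all 6 arrays.

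Basal markers rose. In the list of basal breast line markers all 6 measured genes were higher, with a median of 0.96 and a summed linear signal of 11666 to 12454 with siControl and 21182 to 22279 with siChe-1. KRT14, the keratin of the basal layer, read 8.28, 7.87 and 8.08 with siControl and 9.97, 9.96 and 10.14 with siChe-1, a rise of 1.95 without overlap. KRT5 rose by 0.82, CDH3, the P-cadherin gene, by 1.24 and VIM, the vimentin gene, by 1.10. KRT16, a keratin of stressed epidermis, rose by 2.01, while KRT15 and KRT10 fell by 0.83 and 0.34. Among all 48 keratins 12 rose, 3 fell and 33 did not pass the test. Claudins of tight junctions fell, CLDN3 by 0.72 and CLDN4 by 0.41, and the epithelial repressor OVOL1 rose by 1.03.

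**Figure D3:**
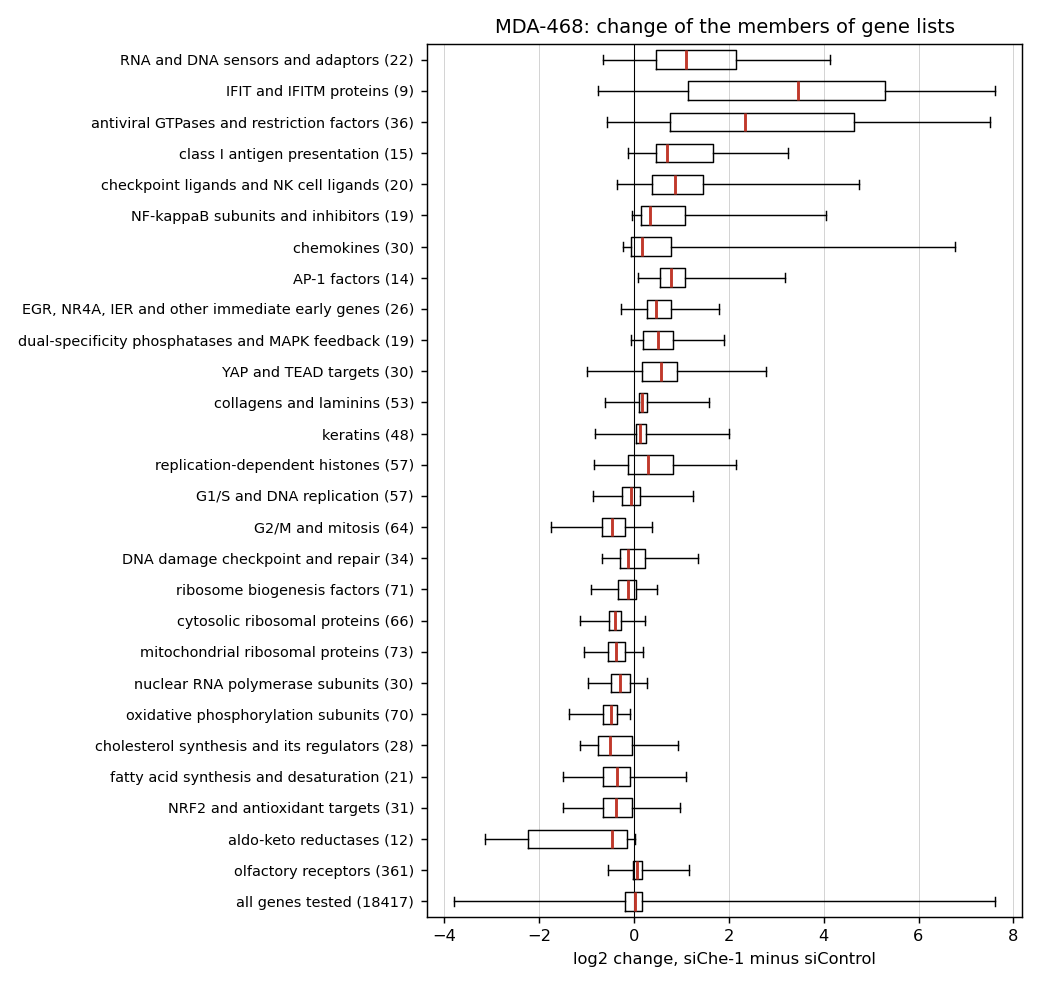
Change of the measured members of some of the 80 gene lists (log2, siChe-1 minus siControl, horizontal axis, with the number measured in brackets). Box, middle 50% of members; red line, median; whiskers, lowest and highest member. Medians of the lists drawn run from 3.46 for IFIT and IFITM proteins to -0.50 for cholesterol synthesis, against 0.02 for all genes (bottom row). The OAS and RNase L list, with a median of 4.96, is not drawn.

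The deepest falls formed another group, made up of receptors, oxidoreductases and secretory genes. NPY1R, a neuropeptide Y receptor, read 9.18, 9.1 and 8.95 with siControl and 5.11, 5.47 and 5.26 with siChe-1, the deepest fall of all genes tested (-3.80 ± 0.10, limma adjusted p = 2.74e-08). NPY5R, the next gene on chromosome 4 in RefSeq order and the receptor of the same peptide, read 6.76, 6.52 and 6.22 against 4.15, 4.48 and 4.08. Both receptors left siChe-1 arrays at low values. The genes directly beside the pair did not pass the test, while the nearby TMA16 and MARCHF1 changed by -0.37 and -0.6 and RAPGEF2, a guanine nucleotide exchange factor, rose by 0.83.

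Cytochrome P450 genes of the CYP4 cluster fell. CYP4Z1, which hydroxylates fatty acids and is known from mammary tissue, read 10.59, 10.61 and 10.44 with siControl against 7.58, 7.65 and 7.48 with siChe-1. Its pseudogene CYP4Z2P read 9.36, 9.32 and 9.21 against 5.85, 5.62 and 5.96, and the sequences of the pair are nearly identical, so which transcript each probe set reads is uncertain. CYP4X1 fell by 1.84 and CYP4A22 by 1.28. In RefSeq order these genes lie together on chromosome 1, with 2 other P450 genes that did not pass the test. PDZK1IP1, directly beyond CYP4A22, rose by 0.84. Among all 52 P450 genes the numbers were near the background, with 8 higher and 10 lower. CYP2J2, an epoxygenase of arachidonic acid, rose by 1.46.

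Aldo-keto reductases, which reduce steroids, prostaglandins and aldehydes, fell in 7 of 12 cases, and none rose. AKR1C1 was among the brightest genes with siControl at 11.98, 12.07 and 11.97 and read 8.84, 8.87 and 8.88 with siChe-1, a fall to 8.84-fold lower signal. AKR1C3, which makes active androgens and prostaglandin F2, read 9.95, 10.03 and 9.82 against 6.99, 7.02 and 6.94. AKR1C2 fell by 2.75, and the changes were -2.06 for AKR1B10, -1.34 for AKR1D1, -0.48 for AKR7A2 and -0.46 for AKR1E2. The AKR1C genes are adjacent on chromosome 10 and nearly alike in sequence, and a dimmer probe set of AKR1C1 fell by only 0.66, so the share of each gene is uncertain. HSD17B2, which inactivates estradiol and testosterone, and ALDH1A1, which makes retinoic acid, were picked after their values were seen and fell by 1.86 and 1.88.

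Antioxidant genes moved with them. In the list of NRF2 and antioxidant targets 21 of 31 fell and 4 rose, with a median of -0.37. NQO1, the quinone reductase, read 11.03, 10.95 and 10.98 against 9.78, 9.92 and 9.73, a fall of 1.17. FTL, the ferritin light chain, fell by 1.49, catalase (CAT) by 1.38 and the epoxide hydrolase EPHX1 by 1.27. The 4 risers were SOD2, the mitochondrial superoxide dismutase (0.97), the cystine transporter SLC7A11 (0.68), the efflux pump ABCC3 (0.44) and OSGIN1 (0.43). Of 21 glutathione transferases 9 fell, including MGST2 (-0.94), GSTM4 (-0.84) and GSTM3 (-0.83); GSTM genes resemble one another.

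Of 24 prostaglandin genes 4 rose and 8 fell, and the 8 became 5 without siControl replicate 3. PTGS1, the constitutive cyclooxygenase, read 8.47, 8.31 and 8.45 with siControl and 5.6, 5.95 and 5.77 with siChe-1, a 6.23-fold fall. Receptors of prostaglandin E2 differed among themselves. PTGER4 read 6.42, 6.44 and 6.5 against 9.31, 9.44 and 9.46, a 7.75-fold rise, and PTGER2 rose 6.31-fold. PTGER3 fell by 0.45, and PTGER1 did not pass the test (0.05, limma adjusted p = 0.8). The breakdown enzymes PTGR1 and PTGR2 fell by 0.87 and 0.74, and SLCO2A1, which takes prostaglandins up, rose by 0.73.

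Secretory and luminal genes moved in both directions. In the secretory list 4 genes fell more than 4-fold and 1, MUC15, rose more than 4-fold, by 3.09, the largest change of that list. CRISP3, a secreted cysteine-rich protein, read 10.41, 10.27 and 10.17 with siControl against 7.33, 7.61 and 7.57 with siChe-1. CLCA2, a regulator of chloride channels, fell by 2.60. SCGB2A2, which encodes mammaglobin, fell by 2.26 and S100A7, psoriasin, by 1.30. AGR2, a disulfide isomerase that folds mucins, fell by 2.04, and MUC15, a membrane mucin, rose from 9.28, 9.37 and 9.2 to 12.27, 12.41 and 12.44. Of 35 secretory epithelial genes 10 fell, 6 rose and 19 did not pass the test, with a median of 0.01. The transcription factor SPDEF read 10.05, 9.97 and 9.94 against 8.44, 8.32 and 8.19, a 3.19-fold fall. CREB3L4 fell by 2.05, FOXA1, which opens chromatin for hormone receptors, by 0.73 and TRPS1 by 0.68. These were the 4 that fell among 18 luminal and hormone-linked factors, of which 6 rose, with a median of 0.04. The risers include the prolactin receptor PRLR (0.67), the epithelial factor GRHL1 (0.65) and XBP1 (0.5), a factor of the unfolded protein response. MYB, a regulator of proliferation in luminal cells that was picked after its value was seen, fell by 1.94. The summed linear signal of the 10 luminal markers was 25161 to 25683 with siControl and 25107 to 26599 with siChe-1, and 3 of them rose and 4 fell.

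Other deep falls were those of CD36, the fatty acid and lipoprotein receptor (-2.70), ATP6V0D2, a subunit of the proton pump (-2.80), TMPRSS11E, a membrane protease (-2.59), AK5, an adenylate kinase (-2.34) and SLC1A2, a glutamate transporter (-2.30). Solute carriers as a family were near the background, with 53 of 359 higher and 92 lower. The largest rises among them were those of SLC15A3, a lysosomal transporter of histidine and peptides (3.76), SLC2A13, an inositol transporter (3.06), and SLC2A12, a glucose transporter (2.72).

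Most lipid synthesis genes fell. In the cholesterol list 18 of 28 genes were lower and 4 higher, with a median of -0.50. INSIG1, the sterol sensor that retains SREBP, fell by 1.14, and the mevalonate pathway enzymes PMVK, MVK and ACAT2 changed by -1.0, -0.98 and -0.91. The transfer proteins STARD5 (0.93) and STARD4 (0.89) rose, as did MYLIP (0.42), a ligase that degrades the LDL receptor. The fourth riser, HMGCS1, changed by 0.27 (limma adjusted p = 0.0172), a call lost without siControl replicate 3 (0.0709) or siChe-1 replicate 2 (0.077). In the fatty acid list 13 of 21 fell and 4 rose. SCD, which makes monounsaturated fatty acids, read 11.52, 11.44 and 11.22 against 9.69, 9.87 and 10.11, a 2.84-fold fall, and its relative SCD5 rose 1.98-fold. The desaturases FADS2 and FADS1 fell by 1.16 and 1.07 and FASN, the fatty acid synthase, by 1.03. The elongase ELOVL7 rose by 1.09 and ACSL5, which activates fatty acids, by 0.96. CH25H, which makes 25-hydroxycholesterol and was picked after its value was seen, read 5.57, 5.81 and 6.05 against 9.34, 9.34 and 9.37.

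Genes of mitosis fell as a group. Of 64 G2/M and mitosis genes 43 were lower and 1 was higher, with a median of -0.46. PRR11 read 9.89, 9.82 and 9.82 with siControl and 7.88, 8.17 and 8.25 with siChe-1, a fall of 1.74. HMMR, a spindle protein, fell by 1.39, the kinesin KIF20A by 1.14, the phosphatase CDC25C by 1.11, CCNB2 and CCNB1, the B-type cyclins, by 1.11 and 1.05, and the kinase PLK1 by 0.85. LMNB1, a lamin of the nuclear envelope picked after its value was seen, read 10.56, 10.51 and 10.47 against 8.77, 8.74 and 8.81. The riser was KIF20B at 0.39 (limma adjusted p = 0.0367), and it did not pass without any 1 of siControl replicates 1, 2 and 3 or siChe-1 replicates 2 and 3 (adjusted p between 0.0594 and 0.119).

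Promoters of this list hold the elements known from cell cycle genes, a CHR (TTTGAA) and CCAAT boxes (CCAAT), shown because these genes fell together. PLK1 holds 1 of each in chr16:23678801-23678880 (+) and CCNB2 holds 3 CCAAT boxes and a CHR in chr15:59105011-59105137 (+), with matches in capitals.
PLK1: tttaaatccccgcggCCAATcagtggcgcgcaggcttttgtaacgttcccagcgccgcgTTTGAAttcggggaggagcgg
CCNB2: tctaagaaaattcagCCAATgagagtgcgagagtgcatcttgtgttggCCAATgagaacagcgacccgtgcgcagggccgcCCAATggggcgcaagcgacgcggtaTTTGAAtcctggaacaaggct

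The CHR letters were found in 32 of 65 promoters of the G2/M list (49.2%) and in 10.9% of the promoters of genes tested, and CCAAT in 75.4% and 32.6%. Of 57 genes of G1/S and DNA replication 15 were lower and 8 higher, with a median of -0.07. The 8 higher became 5 without siControl replicate 1, siControl replicate 2 or siChe-1 replicate 2. CDK4 fell by 0.86 and its relative CDK6 rose by 1.24. The replicative helicase subunit MCM6 fell by 0.63, and ORC6, of the origin recognition complex, rose by 0.67.

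Genes known as p53 targets were split, with 15 of 31 higher and 10 lower. CDKN1A, which encodes the cell cycle inhibitor p21, read 7.68, 7.66 and 7.61 with siControl and 8.86, 8.87 and 8.8 with siChe-1, a 2.29-fold rise. PMAIP1, which encodes the death protein NOXA, read 8.49, 8.37 and 8.36 against 11.2, 11.26 and 11.3, a 7.18-fold rise. GADD45A, a stress sensor, rose by 1.90 and CCNG1 fell by 1.0. In the BCL2 family PMAIP1 was the only gene past 4-fold. The protective gene MCL1 rose by 0.72, BCL2L14 by 0.96 and the death gene BCL2L11, encoding BIM, by 0.43. BNIP3L fell by 0.55 and BCL2 by 0.26. The latter call was lost with the replicate block and with all 10 arrays in 1 fit. It was also lost without siControl replicate 1 or 2 or siChe-1 replicate 2 or 3. Of the 20 genes in this family 6 rose, 2 fell and 12 did not pass the test, with a median of 0.06. Caspases and necroptosis genes were evenly divided, with 10 of 26 in each direction. CASP1 (1.46), CASP5 (1.35) and CASP4 (0.91), which drive inflammatory death, and MLKL (1.24), which executes necroptosis, rose, and CASP6 fell by 0.78.

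DNA repair genes showed no shared direction (10 of 34 higher, 11 lower). CHEK2, a checkpoint kinase known to modify Che-1, rose by 1.36, from 8.82, 8.8 and 8.69 to 10.05, 10.1 and 10.26. PARP1 fell by 0.68, and XRCC5 and PRKDC, parts of the DNA-dependent protein kinase, by 0.67 and 0.62. Among the 18 measured genes of AATF's complex and partners, CHEK2 had the highest change and AATF the lowest.

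The machinery of ribosomes and mitochondria was lower nearly throughout, by small amounts. All 70 measured subunits of oxidative phosphorylation lay below 0, and 63 passed the test, with a median of -0.49. COX8A, of cytochrome oxidase, read 11.05, 11.41 and 10.84 with siControl and 9.74, 9.81 and 9.63 with siChe-1, a fall of 1.37. ATP5MJ and ATP5PB, of ATP synthase, changed by -1.23 and -0.9, and NDUFB6 and NDUFB10, of complex I, by -1.09 and -0.9. Of 66 cytosolic ribosomal proteins 55 fell and none rose (median -0.40). RPL22 fell by 1.13, RPL23 by 0.94 and RPS9 by 0.75. Many ribosomal protein genes have pseudogenes close in sequence. Of 73 mitochondrial ribosomal proteins 51 fell and none rose (median -0.38), led by MRPL30 at -1.06. These lists are bright, and 40.1% of the brightest class of all genes fell.

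Of 71 ribosome assembly factors, among which AATF's complex works, 28 (39.4%) fell, with a median of -0.12. That is near the brightest class of all genes, where 40.1% fell and the median was also -0.12. The 6 assembly factors called higher became 3 without siChe-1 replicate 2. NHP2 and NOP10, of the H/ACA particles that modify ribosomal RNA, changed by -0.91 and -0.76, UTP15, of the small subunit processome, by -0.87 and WDR12, of the large subunit pathway, by -0.83. Of 30 nuclear RNA polymerase subunits 18 fell and none rose. POLR2G fell by 0.98, POLR2B by 0.81, POLR1E by 0.66 and POLR3GL by 0.62, so that subunits of all 3 polymerases were among them.

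Stress and protein quality pathways gave a mixed picture. In the ATF4 and amino acid list 19 of 32 rose, with PPP1R15A, which reverses the translation block, at 2.03, DDIT3, encoding CHOP, at 1.21 and CHAC1, which degrades glutathione, at 1.10. The 6 lower in that list became 3 without siControl replicate 1, siControl replicate 3 or siChe-1 replicate 3. WARS1, the cytosolic tryptophan synthetase, rose by 2.54 from 9.49, 9.34 and 9.38 to 11.85, 11.91 and 12.06, while 19 of 36 aminoacyl-tRNA synthetases fell, QARS1 by 0.79 and CARS2 by 0.76 among them. Folding genes of the endoplasmic reticulum were divided, with 6 of 29 higher and 5 lower. Autophagy and lysosome genes were divided too, with 7 of 36 higher and 11 lower. LAMP3, a lysosomal membrane protein, rose by 3.75, the cargo receptor OPTN by 1.07 and the kinase ULK2 by 0.54, while ATG4A, ATG10 and GABARAP changed by -0.8, -0.75 and -0.6.

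Among mTOR genes 9 of 19 fell and 3 rose. DEPTOR, an inhibitor of mTOR, read 8.18, 7.77 and 8.07 with siControl and 6.64, 6.41 and 6.24 with siChe-1, a 2.99-fold fall. MAPKAP1, a core subunit of mTOR complex 2, fell 2.79-fold and its partner RICTOR rose 2.34-fold. RRAGD, a GTPase that brings mTOR to lysosomes, fell by 0.96 and RHEB, its activator, by 0.78. In glycolysis 11 of 22 genes fell, LDHB by 1.19 and PKM by 0.49 among them. The 5 higher, among them the phosphofructokinase PFKP (0.43) and the glucose transporter SLC2A3 (0.39), became 3 without siControl replicate 1 or siChe-1 replicate 2 and 2 without siControl replicate 2. Hypoxia genes were divided (6 of 20 higher, 5 lower), with the vasodilator peptide ADM at 1.51 and VEGFA at 0.43. Of 31 constitutive proteasome subunits 11 fell, with PSMD5 at -1.28 and PSMB5, a catalytic subunit, at -0.6; with a trend in the prior variance 17 fell.

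Replication-dependent histones rose in 27 of 57 cases and fell in 8, with a median of 0.29. H2AC25 read 7.83, 7.84 and 7.86 with siControl and 9.96, 10.13 and 9.93 with siChe-1, a 4.47-fold rise. H4C8 rose by 1.92 and H2BC21 by 1.29. These genes are close copies of one another, so single values are uncertain. Of 480 numbered zinc finger genes 95 rose and 62 fell, and the 62 became 41 without siControl replicate 1. The largest rise was that of ZNF804A (1.99) and the deepest fall that of ZNF32 (-1.17). Olfactory receptors show how the test behaved near the floor: 350 of 361 had a siControl mean below 6.18, the 30th percentile of levels, and 23 were called higher. That count fell to 12 without siControl replicate 1, 15 without siChe-1 replicate 1 and 14 without siChe-1 replicate 2.

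The array also reads microRNA genes, through probe sets for the hairpin or its primary transcript, so that mature levels were not measured. Of 173 microRNA genes 23 rose and 3 fell, shares under those of all genes, and 126 had a siControl mean below 6.18. MIR30C2 rose most, from 7.75, 7.67 and 7.63 to 8.56, 8.54 and 8.76 (change 0.94 ± 0.08, limma adjusted p = 3.25e-05). MIR23A, MIR27A and MIR24-2, which lie together on chromosome 19, rose by 0.59, 0.48 and 0.66, the last not passing without siControl replicate 2 (0.59, adjusted p = 0.0571). MIR221 rose by 0.68, from 6.19, 6.07 and 6.29 to 6.82, 6.8 and 6.96. Its chromosome X neighbour MIR222 rose by 0.39 (adjusted p = 0.0459), a call lost without siControl replicate 2 or 3 or siChe-1 replicate 1 or 3 (adjusted p 0.0513 to 0.134). Their mature forms are given from RefSeq (GRCh38.p14), 5′ to 3′, with the seed (bases 2 to 8) in capitals, because miR-221 and miR-222 share a seed and miR-23a, miR-27a and miR-24 do not. They lie at chrX:45746180-45746202 and chrX:45747036-45747056, at chr19:13836595-13836615, chr19:13836447-13836467 and chr19:13836289-13836310, and at chr6:71377003-71377025, in the order printed and all on the minus strand.
hsa-miR-221-3p: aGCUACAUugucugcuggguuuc
hsa-miR-222-3p: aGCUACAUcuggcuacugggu
hsa-miR-23a-3p: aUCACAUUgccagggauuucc
hsa-miR-27a-3p: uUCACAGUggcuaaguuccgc
hsa-miR-24-3p: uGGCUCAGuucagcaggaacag
hsa-miR-30c-5p: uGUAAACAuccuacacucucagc

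Markers of other cell types were looked at because a culture could hold other cells. Of the 8 myeloid markers 4 rose, ITGAM by 1.07, CD14 by 0.64, CD68 by 0.46 and CSF1R by 0.42. The summed linear signal of the 8 was 1043 to 1092 with siControl and 1579 to 1674 with siChe-1, in the same direction as the immune lists, and the part of other cells in the result was not tested. PTPRC, which encodes CD45 and defines leukocytes, and LYZ, FCGR3A and AIF1 were below 6.18 on all 6 arrays. PTPRC was lower by -0.33 (limma adjusted p = 0.0247), a call lost without siControl replicate 1 or 3 or siChe-1 replicate 2 or 3 (adjusted p 0.0631 to 0.0872). The T and B cell markers CD3D, CD3E, CD3G, CD2 and MS4A1 were also below 6.18 on all arrays. CD3G was called higher by 0.22 (limma adjusted p = 0.0464). That call was lost with the replicate block, with all 10 arrays in 1 fit and after further quantile normalization. A trend in the prior variance also removed it, as did leaving out siControl replicate 1 or 2 or any 1 siChe-1 replicate. None of the 6 adipocyte markers passed the test, and 2 of 8 fibroblast and 2 of 8 endothelial markers rose. The summed signal of the fibroblast markers was 655 to 688 with siControl and 808 to 836 with siChe-1. For the endothelial markers it was 445 to 474 and 533 to 593. A rise of the sum without overlap was thus not particular to the myeloid markers. For the adipocyte and the T and B cell markers the sums overlapped.

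Whether a change was particular to MDA-468 was tested against the same comparison in SKBR3, in a fit of all 10 arrays. The change differed between the lines for 2296 genes (12.5%), of which 1267 had the higher change in MDA-468 and 1029 the lower. That count was 1340 without SKBR3 siControl replicate 2 and 3601 without SKBR3 siChe-1 replicate 1, and 918 with a replicate block. The genes named here are AATF and the 5 highest and 5 lowest changes of MDA-468, so they were picked by one side of the difference. AATF fell by 0.66 in SKBR3, a difference of -1.05 from SKBR3 to MDA-468 (limma adjusted p of the difference = 0.000371). The falls of oxidoreductases were larger in MDA-468: AKR1C1 changed by -0.02 in SKBR3, a difference of -3.12 ± 0.13 (adjusted p = 2.9e-07). For AKR1C3 the difference was -2.75. In SKBR3 these genes read between 4.16 and 5.94, low in the array's range, against 9.82 to 12.07 on MDA-468 siControl arrays, although levels are not on a common distribution between the lines. NPY1R was at 2.94 and 3.02 on SKBR3 siControl arrays and differed by -3.98 (adjusted p = 4.46e-07). CYP4Z2P and CYP4Z1 fell in SKBR3 as well, by 0.98 and 0.68, and the differences were -2.51 and -2.29.

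The largest rises were common to the lines. IFI44L rose by 3.03 more in MDA-468 (adjusted p = 5.93e-06), where its siControl level was lower (5.24 against 7.51 in SKBR3). RSAD2 rose by 1.26 more and CCL5 by 0.83 more (adjusted p = 0.00375 and 0.00396). IFIT1 did not differ by the test (-0.39 ± 0.17, adjusted p = 0.179), which does not show equal changes. For IFIT2 the difference was -0.74 (adjusted p = 0.0457). That call was lost without any 1 array other than MDA-468 siControl replicate 2 (adjusted p 0.0569 to 0.158), and without that array the difference was -0.93 (adjusted p = 0.0038).

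**Figure D4:**
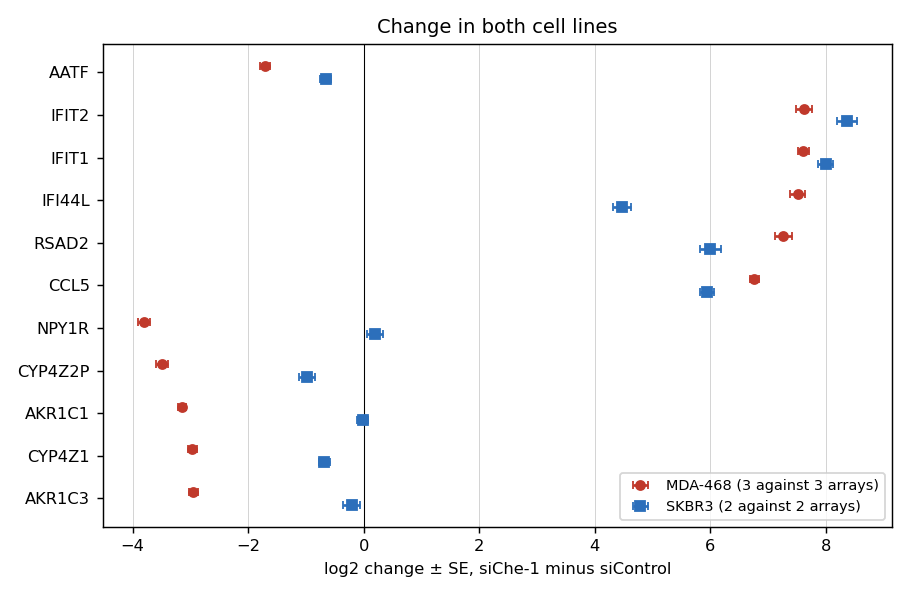
Change with siChe-1 (log2 ± SE, horizontal axis) in MDA-468 (red circles, 3 against 3 arrays) and SKBR3 (blue squares, 2 against 2 arrays) for AATF, the 5 largest rises and the 5 deepest falls of MDA-468. The rises lie far to the right in both lines, while NPY1R and AKR1C1 fell by 3.80 and 3.14 in MDA-468 and stood at 0.19 and -0.02 in SKBR3.

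Probe sets with no gene symbol or with several were tested apart, since no gene can be named from them. Of 13837 such probe sets 1066 (7.7%) passed the test in MDA-468, 409 higher and 657 lower.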

How the data were processed

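Total RNA of the cells was hybridised to Affymetrix whole-transcript arrays. The deposited values are on a log2 scale. Per the submitters' processing notes the authors ran RMA through Affymetrix Expression Console, whose version was not given in the sources used. RMA subtracts background, equalises distributions of arrays processed together and summarises probes, which compresses changes of very bright and very dim probe sets. Of 33297 probe sets, 19460 had 1 gene symbol in the platform annotation, 1754 several and 12083 none; 19429 symbols were matched through gene IDs to RefSeq. For 769 genes with several probe sets the one with the highest mean over the 6 arrays was kept, which gave 18417 genes. None was left out for a low value, because a filter on the mean lets genes low with siControl pass through their siChe-1 values.

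The 6 MDA-468 arrays were fitted alone by lmFit and eBayes of limma 3.58.1 (R 4.3.3), with 4 residual and 4.63 prior degrees of freedom, after the steps had been tested on simulated data. P-values were adjusted by Benjamini-Hochberg across the 18417 genes, with 0.05 as the limit for a call. Values are log2, changes are siChe-1 minus siControl ± SE, and the number of arrays limits precision. The difference between lines is an interaction contrast over all 10 arrays. Same-numbered arrays of the MDA-468 groups deviated with correlations of -0.396, -0.011 and -0.234, so replicate numbers were not taken to pair arrays.

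The genes named are AATF, the 15 highest and 15 lowest changes, line markers, and in each list up to 6 called members with the largest change plus every called member where 5 or fewer were called; others were chosen after their values were seen. These include TLR3, MX1, TRIM22, B2M, the guanylate-binding proteins, CCNB1, PLK1, ACACA and the chromosomal neighbours. The members and the 80 lists were chosen with earlier results of these data known. Alternatives were filters at the 30th and 50th percentile, all 10 arrays in 1 fit, a replicate block, further quantile normalization, median centring, the mean over probe sets, a trend in the prior variance and leaving out each array.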

Additional observations from a re-analysis of the deposited data

Results flagged for a closer look

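For 10 of the 11 genes compared between the lines, the change with siChe-1 differed between MDA-468 and SKBR3 by a test of the difference itself (limma interaction contrast, adjusted over all genes). Over all genes 12.5% did so, and the 11 were AATF and the 5 highest and 5 lowest changes of MDA-468, picked by one side of this difference. The MDA-468 change minus the SKBR3 change was -1.05 for AATF, 3.03 for IFI44L, 1.26 for RSAD2 and 0.83 for CCL5. It was -3.98 for NPY1R, -2.51 for CYP4Z2P, -3.12 for AKR1C1, -2.29 for CYP4Z1 and -2.75 for AKR1C3. For IFIT2 it was -0.74, and that call was lost under median centring (adjusted p = 0.0535), with the replicate block (adjusted p = 0.0932) and in 9 of the 10 fits that left out 1 array (adjusted p 0.0569 to 0.158).

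Probe sets that name no gene or several were outside the comparison across genes. Of 13837 such probe sets 1066 (7.7%) passed the test between the MDA-468 groups, 409 higher and 657 lower, with 38 higher and 2 lower by more than 4-fold. Probe set 7922773 rose from a mean of 5.1 to 10.02 and probe set 7896712 from 7.05 to 11.53, and probe sets 7893918 and 7896729 changed by -2.18 and -2.02.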

How the results depend on the processing

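The count of called genes lay between 5711 and 6960 when each MDA-468 array was left out in turn and between 5723 and 7316 under the other alternatives, against 6914. With the replicate block 5723 were called, and the block changed no call of AATF. Genes lower by more than 4-fold numbered 16 in place of 26 under the filter at the 50th percentile, which tests fewer genes. The share of calls that were higher stayed between 37.6% and 44.5%. Of the 521 called genes followed through 14 alternatives, 463 kept their call under every alternative that tested them, 58 lost it under at least 1, and 0 changed direction. The count of genes whose change differs between the lines rested on single arrays: it was 2296, 918 with the replicate block, and 1340 to 3601 when arrays were left out, the lowest without SKBR3 siControl replicate 2 and the highest without SKBR3 siChe-1 replicate 1. Of 2240 list counts under alternatives, 203 moved by more than 1.5 times. Under the filter at the 50th percentile, where dim members were not tested, called rises went from 12 to 7 for chemokines, 12 to 4 for interleukins, 23 to 4 for microRNA genes, 6 to 1 for class II genes, 7 to 3 for feedback inhibitors and for complement, 8 to 4 for P450 genes, 5 to 2 for TNF family ligands and 5 to 3 for adhesion receptors, and called falls from 5 to 3 for hypoxia genes. With all 10 arrays in 1 fit or with the replicate block, rises went from 8 to 5 for G1/S genes and from 6 to 3 for ribosome assembly factors, and falls from 6 to 3 in the ATF4 list. Genes near the array's floor or ceiling have changes that are understated.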
